A study of Mus musculus with 15 samples.

Results

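RNA of 10 mouse genes of the NF-κB system was followed across the libraries of a study of vascular tissue under angiotensin II. The genes were taken by name, with the deposited transcript values summed per gene: the inhibitors Nfkbia and Tnfaip3, the transcription factor subunits Nfkb1, Nfkb2, Rela and Relb, the cytokines Tnf and Il6, and the adhesion molecules Icam1 and Vcam1. They are 10 of 32930 genes in the summed table, and 8 of them had enough RNA to be tested, while Tnf and Il6 did not reach the minimum of 0.5 FPKM in at least 5 libraries. FPKM counts fragments scaled to transcript length and to the size of the library. All libraries came from C57BL/6 mice aged 10 weeks, in 3 groups of 5. The NS group carries the label normal and the AngII group the label hypertension. The Lien group is labelled as hypertension with Lien, which the series title identifies as liensinine, an alkaloid, so that angiotensin II is common to the AngII and Lien groups. Dose, route, duration, sex and the vessel sampled are among the things the sources used here leave out, the extraction note speaks of hearts where the labels give vascular tissue, and no label says that the libraries come from separate mice, so p-values measure the spread between libraries, which may be technical.

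NF-κB is a family of dimeric transcription factors that resting cells hold in the cytoplasm, bound to inhibitory proteins of the IκB family. Cytokines such as TNF switch on the IκB kinase complex, IκBα is degraded, and dimers with p65 (encoded by Rela) enter the nucleus and raise transcription of inflammatory genes, of adhesion molecules that catch leukocytes on endothelium, and of their own inhibitors IκBα and A20, which close the loop. A second, slower branch processes the p100 protein of Nfkb2 to p52, which pairs with RelB, and is prominent in lymphoid tissue. RNA levels of these genes do not measure the activity of the pathway, which turns on phosphorylation, degradation and nuclear entry of proteins.

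Promoter windows of 4 of the genes are printed because the feedback inhibitors and Nfkb2 are textbook targets of NF-κB and their RNA is described below, and because Il6 has a match beside RNA near 0. RefSeq (GRCm38.p6) gave a window of 300 bases, 250 before and 50 after a start site, for 7 of the 10 genes, and Nfkb1, Relb and Vcam1 had none. Capitals mark matches of 10 bases to the κB consensus, read on both strands, with overlapping matches run together. The sequences run 5′ to 3′ on the strand of the gene.
Nfkbia (chr12:55492598-55492897, minus strand): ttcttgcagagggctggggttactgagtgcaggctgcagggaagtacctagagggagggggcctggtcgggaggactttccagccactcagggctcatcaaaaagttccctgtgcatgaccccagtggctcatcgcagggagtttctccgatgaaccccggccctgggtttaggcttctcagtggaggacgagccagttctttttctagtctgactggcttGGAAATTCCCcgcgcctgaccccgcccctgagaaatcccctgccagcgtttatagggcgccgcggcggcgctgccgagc
Tnfaip3 (chr10:19015361-19015660, minus strand): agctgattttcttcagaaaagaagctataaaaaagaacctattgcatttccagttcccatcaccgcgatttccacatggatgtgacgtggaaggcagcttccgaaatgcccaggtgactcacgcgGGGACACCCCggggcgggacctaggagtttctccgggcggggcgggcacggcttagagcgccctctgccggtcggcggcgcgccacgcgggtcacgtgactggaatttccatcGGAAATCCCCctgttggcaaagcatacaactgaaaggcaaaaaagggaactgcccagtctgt
Nfkb2 (chr19:46304487-46304786, plus strand): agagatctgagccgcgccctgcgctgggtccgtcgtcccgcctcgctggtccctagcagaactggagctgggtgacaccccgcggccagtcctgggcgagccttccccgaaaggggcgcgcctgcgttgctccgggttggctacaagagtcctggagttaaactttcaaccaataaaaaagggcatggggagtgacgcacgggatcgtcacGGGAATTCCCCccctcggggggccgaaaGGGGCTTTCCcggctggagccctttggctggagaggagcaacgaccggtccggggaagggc
Il6 (chr5:30012864-30013163, plus strand): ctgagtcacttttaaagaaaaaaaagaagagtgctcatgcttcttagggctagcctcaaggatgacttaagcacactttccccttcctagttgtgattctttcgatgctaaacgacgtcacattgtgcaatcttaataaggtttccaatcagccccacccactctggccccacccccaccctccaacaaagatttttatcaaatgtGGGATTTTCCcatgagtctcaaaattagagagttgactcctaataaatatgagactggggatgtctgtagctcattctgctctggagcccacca
The Nfkbia window held 1 match, 29 to 20 bases before the start site. The Il6 window also held 1, from 44 to 35 bases before its start. The first Tnfaip3 window held 2 and the first Nfkb2 window 3, of which 2 overlap. A match stood in a window of 4 of the 7 genes, against 9.55% of the 27025 genes with a window. Icam1, Tnf and Rela had no match in these windows. A match is a string of letters and was not tied to binding of any factor here.

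The tissue and the table set limits on all 15 libraries. Defining genes of smooth muscle were present in each, with 8 list genes summing to 578 to 4904 FPKM, as were those of brown fat, at 464 to 4204 FPKM for 7 genes. T cell genes averaged 3.70 and 3.86 on the log2(FPKM + 1) scale in AngII 7 and AngII 9 and 0.354 to 2.92 elsewhere. In the same order B cell genes averaged 4.08 and 4.62 against 0.347 to 3.00. NS 3 and AngII 9 stood out for skeletal muscle genes, with means of 9.71 and 6.84, where no other library exceeded 2.61. The 9 cardiomyocyte genes summed to 1215, 2176 and 1253 FPKM in NS 1, NS 5 and AngII 8, and to 7.82 to 295 FPKM in the other libraries. In bulk tissue, fewer cells of a type and less RNA per cell cannot be told apart. Between 11% and 17.0% of the summed values sat on transcripts that the authors assembled and that carry no Ensembl identifier, and some well-known genes were low in the annotated rows, among them Gapdh, a glycolysis gene of every cell, at 0.0468 to 4.41 FPKM. A low sum over annotated transcripts therefore need not mean little RNA of the gene. The depth of the libraries is not given, and no counting intervals are available.

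Nfkbia, which encodes the inhibitor IκBα, was the most abundant of the 10 genes on the FPKM scale and the 1 gene whose AngII and NS libraries did not overlap. Its level was 38.7, 52.6, 64.3, 69.9 and 74.8 FPKM in the NS libraries. It was 110.6, 150.0, 108, 132 and 88.5 FPKM in AngII 6 to AngII 10, and 101, 87.4, 90.8, 102 and 72.1 FPKM in Lien 11 to Lien 15. Every AngII library lay above every NS library, with AngII 7 and AngII 9, the libraries rich in T and B cell genes, the 2 highest of all, and the Lien libraries lay between, with Lien 15 under the highest NS library and 3 Lien libraries above the lowest AngII library. Group means were 60.1 ± 14.5 FPKM in NS, 118 ± 23.7 in AngII and 90.7 ± 12.2 in Lien (SD, n = 5 each). On the log2(FPKM + 1) scale AngII was 0.97 above NS (SE 0.19, 95% interval 0.57 to 1.38), which did not pass over all 15586 genes tested (limma adjusted p = 0.0833, unadjusted p = 0.000128), although only 23 genes had a smaller p. Lien was 0.36 below AngII (95% interval -0.77 to 0.04, limma adjusted p = 0.74) and 0.61 above NS (95% interval 0.21 to 1.02, limma adjusted p = 0.391). Its coordinates in GRCm38 are 55489410 to 55492647 of chromosome 12, minus strand.

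**Figure D1:**
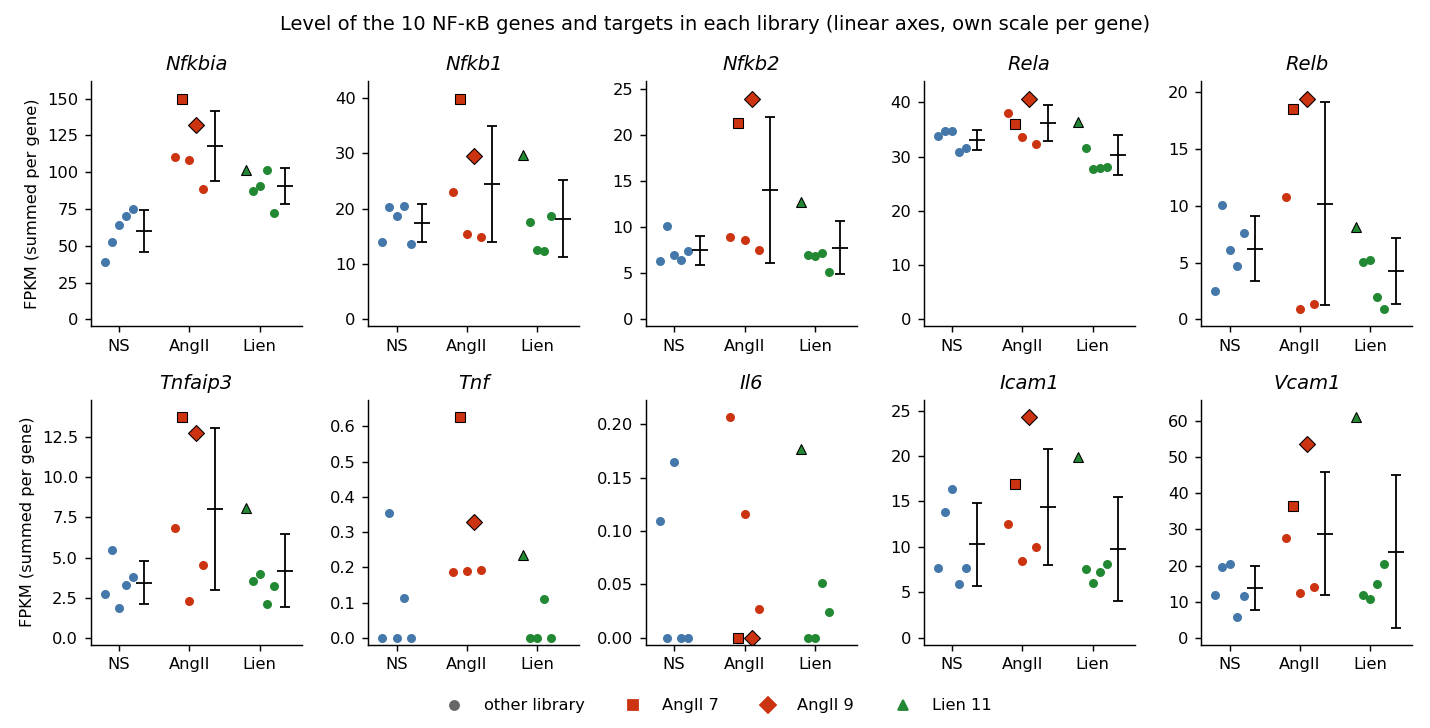
Summed FPKM per library (points, linear axes with a separate scale for each gene) of the 10 genes in the NS, AngII and Lien groups, with the mean and SD of 5 libraries beside the points (not drawn for Tnf and Il6, which are partly listed at 0). Nfkbia separates AngII (88.5 to 150.0 FPKM) from NS (38.7 to 74.8 FPKM), and AngII 7 and AngII 9 are the 2 highest of the 15 libraries for Nfkbia, Nfkb2, Relb and Tnfaip3.

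Tnfaip3 encodes A20, an enzyme that edits ubiquitin chains and shuts off signalling to NF-κB. It stood at 2.72, 5.48, 1.89, 3.29 and 3.77 FPKM in NS, at 6.87, 13.7, 2.30, 12.7 and 4.54 FPKM in AngII, and at 8.08, 3.54, 3.96, 2.09 and 3.23 FPKM in Lien, each in order of library number. AngII 7 and AngII 9 exceeded all other libraries, and the remaining AngII libraries overlapped NS. The log2 difference between AngII and NS was 0.87 (SE 0.39, limma adjusted p = 0.697), and 0.29 (SE 0.37) without AngII 7 and AngII 9. Lien differed from AngII by -0.69 (95% interval -1.53 to 0.15) and from NS by 0.18 (-0.66 to 1.02), with limma adjusted p of 0.74 and 0.97. The ratio of Nfkbia to Tnfaip3 within a library, in FPKM, ran from 9.60 to 34.1 in NS, 10.4 to 47.1 in AngII and 12.5 to 48.6 in Lien, so the level of the first feedback inhibitor did not fix that of the second.

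Among the subunits, Rela, which encodes the activating subunit p65, had the narrowest range. It ran from 30.8 to 34.8 FPKM in NS (mean 33.2 ± 1.83), from 32.4 to 40.7 in AngII (36.2 ± 3.34) and from 27.8 to 36.4 in Lien (30.4 ± 3.71, SD, n = 5 each). Its log2 difference was 0.12 between AngII and NS, -0.25 between Lien and AngII (95% interval -0.47 to -0.02, limma adjusted p = 0.74) and -0.13 between Lien and NS. The 0.12 matches the median of all tested genes in that comparison, to 2 decimals, and turned to -0.0057 and -0.039 with quantile normalization and scaling to a common median. Within a library the ratio of Nfkbia to Rela ran from 1.14 to 2.37 in NS, from 2.74 to 4.16 in AngII and from 2.56 to 3.64 in Lien. The ratio was not tested, and no share of other genes whose ratio to Rela separates NS in this way was taken. Nfkbia itself overlapped between NS and Lien, at 74.8 FPKM in NS 5 and 72.1 FPKM in Lien 15.

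Nfkb1, the gene of p105 and its product p50, ran from 13.6 to 20.5 FPKM in NS, 14.8 to 39.9 in AngII and 12.4 to 29.6 in Lien. AngII 7 (39.9), Lien 11 (29.6) and AngII 9 (29.5 FPKM) were the 3 highest libraries. Its differences of 0.39 for AngII against NS, -0.38 for Lien against AngII and 0.01 for Lien against NS did not pass (limma adjusted p = 0.759, 0.741 and 0.997). Without AngII 7 and AngII 9 the first of these was 0.016.

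Nfkb2, the gene of p100 and p52, stood at 6.34, 10.2, 7.02, 6.46 and 7.38 FPKM in NS. It stood at 8.92, 21.2, 8.56, 23.9 and 7.47 FPKM in AngII and at 12.7, 6.93, 6.90, 7.23 and 5.14 FPKM in Lien. Again AngII 7 and AngII 9 lay far above the rest, followed by Lien 11 and NS 2. The log2 difference was 0.69 for AngII against NS (SE 0.31, limma adjusted p = 0.697), -0.67 for Lien against AngII (limma adjusted p = 0.74) and 0.01 for Lien against NS. Without AngII 7 and AngII 9 the first 2 came to 0.15 (SE 0.23) and -0.14 (SE 0.23). The gene spans 46304320 to 46312385 on chromosome 19 and overlaps Psd and a noncoding gene, both on the other strand, and strand use in the counting is not given.

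Relb, the partner of p52, had the largest standard error of the 8 tested genes on the log2(FPKM + 1) scale (0.67). It stood at 2.54, 10.1, 6.16, 4.75 and 7.64 FPKM in NS, at 10.8, 18.5, 0.933, 19.4 and 1.34 FPKM in AngII and at 8.16, 5.10, 5.22, 1.97 and 0.933 FPKM in Lien. The highest libraries were AngII 7 and AngII 9, and the lowest were AngII 8 and Lien 15. The difference between AngII and NS was 0.12 with a 95% interval from -1.30 to 1.55, that between Lien and AngII -0.68 (-2.11 to 0.74), and that between Lien and NS -0.56 (-1.99 to 0.86). Its leading transcript was listed at 0 in NS 1, AngII 8, AngII 10 and Lien 14, and the first difference was -0.84 (SE 0.63) without AngII 7 and AngII 9.

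The cytokine genes were near the floor of the table. Tnf, the gene of the classical activator of the pathway, was listed at 0 in 6 of 15 libraries. It was listed at 0, 0.356, 0, 0.113 and 0 FPKM in NS, at 0.187, 0.626, 0.190, 0.330 and 0.193 FPKM in AngII, and at 0.234, 0, 0, 0.110 and 0 FPKM in Lien. All 5 AngII libraries were above 0, with AngII 7 highest, while NS 2 lay above 4 of them. Il6, a cytokine of the acute phase, was listed at 0 in 7 libraries and reached 0.165 FPKM in NS, 0.207 in AngII and 0.176 in Lien. No test was made for either gene.

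Icam1 and Vcam1 encode the endothelial ligands for leukocyte integrins. Icam1 stood at 7.63, 13.8, 16.3, 5.94 and 7.65 FPKM in NS, at 12.5, 17.0, 8.45, 24.3 and 9.97 FPKM in AngII and at 19.9, 7.62, 6.02, 7.21 and 8.15 FPKM in Lien. The 3 groups overlapped over most of their range, and AngII 9 and Lien 11 were highest. Differences of 0.45 for AngII against NS, -0.55 for Lien against AngII and -0.10 for Lien against NS did not pass (limma adjusted p = 0.772, 0.74 and 0.981). The first came to 0.25 without AngII 9, 0.30 without NS 4 and 0.078 without both AngII 7 and AngII 9. Icam1 spans 21015985 to 21028817 on chromosome 9 and overlaps an antisense gene.

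Vcam1 stood at 11.7, 19.5, 20.3, 5.74 and 11.5 FPKM in NS, at 27.6, 36.4, 12.4, 53.5 and 14 FPKM in AngII and at 61.0, 11.8, 10.8, 14.9 and 20.5 FPKM in Lien. The highest library of all was Lien 11, in a group whose other 4 libraries stayed within the range of NS or just above it. Its difference between AngII and NS was 0.93 (95% interval -0.12 to 1.98, limma adjusted p = 0.719), and 0.40 without AngII 7 and AngII 9. For Lien against AngII it was -0.38 (-1.42 to 0.67), turning to 0.16 without AngII 7 and AngII 9, and for Lien against NS it was 0.55 (-0.49 to 1.6), coming to 0.15 without Lien 11 and 0.30 without NS 4. The intervals of both adhesion genes take in changes of more than 1 log2 unit in at least 1 comparison. Vcam1 spans 116109949 to 116129688 on chromosome 3 and overlaps an antisense gene.

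None of the 8 tested genes passed in AngII against NS, where 0.077% of all tested genes did. At an unadjusted p under 0.05 there were 3 (Nfkbia, Nfkb2 and Tnfaip3), against 7.04% of all tested genes. Nfkbia was the 1 of 8 whose AngII libraries all lay above NS, a pattern shown by 1.51% of tested genes. All 8 differences were positive, beside 70.1% over all genes, and their median was 0.57 against 0.12. In Lien against AngII none passed (0.0128% of all genes), 2 had an unadjusted p under 0.05 (Nfkb2 and Rela; 6.4% of all genes), and all 8 differences were negative, beside 70.2% over all genes, with a median of -0.465 against -0.13. Those 2 comparisons share the AngII libraries. In Lien against NS none passed (0.231% of all genes), Nfkbia alone had an unadjusted p under 0.05 (7.06% of all genes), and 5 differences were positive (47.8% of all genes) and 3 negative, with medians of 0.013 and -0.013.

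**Figure D2:**
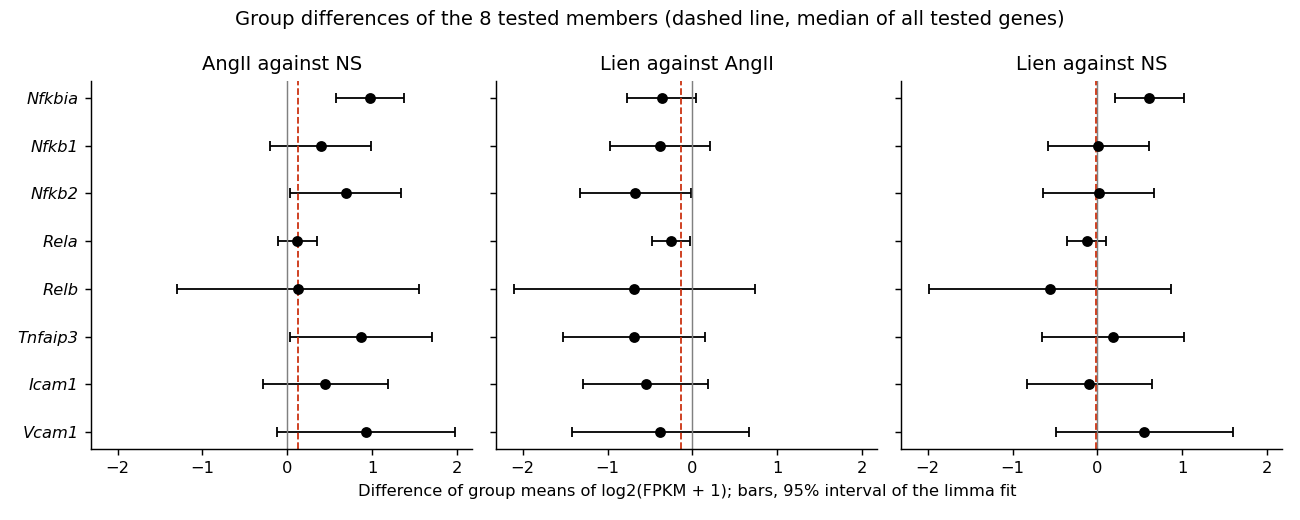
Differences of group means on the log2(FPKM + 1) scale for the 8 tested genes in the 3 comparisons, as points with 95% intervals of the limma fit; the solid line is 0 and the dashed line the median of all tested genes. The Nfkbia interval lies above 0 in AngII against NS (0.57 to 1.38) and in Lien against NS (0.21 to 1.02), neither of which passed after adjustment, and the Relb interval is the widest in each panel.

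Other genes of the pathway were read from lists chosen with earlier results of these data known. Among 6 further Rel and IκB family genes none passed in any comparison. In Lien 5 of the 6 were lower than in NS and 6 of 6 lower than in AngII, with medians of -0.24 and -0.61. Of all tested genes 47.8% were higher in Lien than in NS and 70.2% lower in Lien than in AngII, with medians of -0.013 and -0.13. Rel, the gene of the lymphoid subunit c-Rel, was at 1.26 to 3.04 FPKM in NS, 0.881 to 4.32 in AngII and 0.640 to 1.68 in Lien (log2 -0.67 for Lien against NS, limma adjusted p = 0.636). Bcl3, a nuclear IκB protein that binds p50 and p52, was at 3.21 to 7.24 FPKM in NS, 2.48 to 10.7 in AngII and 1.94 to 3.73 in Lien (log2 -0.74 for Lien against NS, limma adjusted p = 0.665). Nfkbiz, another nuclear IκB protein, ran from 4.37 to 5.18 FPKM in the AngII and from 2.24 to 3.89 in the Lien libraries, without overlap (log2 -0.47, limma adjusted p = 0.74), as did 0.802% of all tested genes in that direction. Nfkbib, the gene of IκBβ and the most abundant of the 6, was at 15.9 ± 2.31, 17.6 ± 3.92 and 15.3 ± 1.63 FPKM in NS, AngII and Lien (SD, n = 5 each). The largest of these 3 group means exceeded the smallest by less than the SD in AngII.

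Of 19 genes of the IκB kinase complex and its upstream kinases and adaptors, none passed in any comparison. In AngII 15 were higher than in NS (median 0.20), in Lien 18 were lower than in AngII (median -0.31), and in Lien 8 were higher than in NS (median -0.11). The shares over all tested genes, in the same order, were 70.1%, 70.2% and 47.8%, with medians of 0.12, -0.13 and -0.013. Birc2, a ubiquitin ligase of the TNF receptor complex, averaged 11.7 ± 1.5 FPKM in the NS and 17.8 ± 5.94 in the AngII libraries (log2 0.52, limma adjusted p = 0.666). Traf5, an adaptor of TNF family receptors, averaged 7.38 ± 3.23 FPKM in the AngII and 3.79 ± 1.76 in the Lien libraries (log2 -0.80, limma adjusted p = 0.74, SD, n = 5 each). Tab2 and Myd88, the 2 most abundant of this list, differed by 0.03 and 0.10 between AngII and NS.

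Among 12 other feedback inhibitors and ubiquitin editors none passed, with medians of 0.19, -0.12 and 0.0037 in the 3 comparisons in the order above. Zfp36, which destabilizes Tnf mRNA, was at 50.2 ± 13.3, 62.7 ± 9.62 and 44.0 ± 10.9 FPKM in NS, AngII and Lien, and the autophagy adaptor Tax1bp1 at 53.7 ± 4.51, 56.6 ± 3.87 and 50.9 ± 6.07 FPKM (SD, n = 5 each). Of 13 receptors none passed. Tnfrsf1a, the main TNF receptor, was at 47.5 ± 15.5, 39.8 ± 2.01 and 46.3 ± 13.8 FPKM. Il1r1, the signalling receptor of interleukin 1, ran from 3.12 to 8.60 FPKM in the NS and from 1.27 to 2.79 in the Lien libraries, without overlap (log2 -1.21, SE 0.36, limma adjusted p = 0.339); of all tested genes, 0.911% had every Lien library below every NS library.

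Of 9 activating ligands 4 could be tested and none passed. Ltb, a lymphotoxin made by lymphocytes, was at 57.9 and 64.4 FPKM in AngII 7 and AngII 9 and at 1.34 to 7.76 FPKM in the other AngII libraries. It also stood at 30.6 FPKM in NS 2 and 23.5 FPKM in Lien 11, and at 1.09 to 2.38 FPKM in the remaining NS and Lien libraries. Tnfsf12, the gene of TWEAK and the other abundant ligand, was at 16.2 ± 3.76, 19.3 ± 3.88 and 19.2 ± 6.71 FPKM in NS, AngII and Lien (SD, n = 5 each). Il1b, the gene of interleukin 1β, was at 0.577 to 3.63 FPKM in NS, 0.249 to 1.72 in AngII and 0.421 to 1.73 in Lien. Its log2 difference between AngII and NS was -0.68 (limma adjusted p = 0.697).

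Of 26 other target genes 22 could be tested, and 1 passed in AngII against NS, beside 0.077% of all tested genes. It was Gadd45b, a stress gene that was higher in AngII (log2 1.22, SE 0.19, limma adjusted p = 0.031). That call was lost in 13 of 31 alternatives (log2 1.0 to 1.34), among them no filter on low values (limma adjusted p = 0.0818), the fit without AngII 7 and AngII 9 (limma adjusted p = 0.283) and 8 of the 15 fits without 1 library (NS 1, 2, 4 or 5, or AngII 6, 7, 8 or 9; limma adjusted p from 0.0725 to 0.114). Over all 22 target genes, Gadd45b included, 13 were higher and 9 lower in that comparison, with a median of 0.18. Of all tested genes 70.1% were higher there, with a median of 0.12. In Lien against AngII 18 of 22 were lower (median -0.24), beside 70.2% of all tested genes. In Lien against NS 12 of 22 were lower (median -0.04), where 47.8% of all tested genes were higher. None of the 22 passed in either (0.0128% and 0.231% of all tested genes). Gadd45b was 0.91 higher in Lien than in NS (limma adjusted p = 0.0905). Its Lien libraries all lay above its NS libraries, as for 0.892% of all tested genes. Saa3, an acute phase protein gene, had positive differences for Lien. Its level was 0.541 to 3.62 FPKM in NS, 0 to 15.2 in AngII and 4.26 to 66.0 in Lien, with a log2 difference of 3.31 between Lien and AngII (SE 0.76, limma adjusted p = 0.429) and 3.15 between Lien and NS (limma adjusted p = 0.184). Every Lien library lay above every NS library, as for 0.892% of all tested genes, while AngII 6 lay above Lien 14. Cd83, another target of the list, went the other way. It averaged 8.47 ± 2.34 FPKM in NS and 2.69 ± 1.355 in Lien (log2 -1.39, limma adjusted p = 0.13). Its Lien libraries all lay below its NS libraries, as for 0.911% of all tested genes. For Lien against AngII its log2 difference was -1.055 (limma adjusted p = 0.74). Sod2, a mitochondrial antioxidant enzyme and an abundant target, was at 46.9 ± 14.6, 29.2 ± 22.9 and 56.7 ± 16.1 FPKM in NS, AngII and Lien (SD, n = 5 each). Of the 12 integrin partners and related adhesion genes 11 could be tested and none passed, with 10 higher in AngII than in NS (median 0.37), 10 lower in Lien than in AngII (median -0.43) and 7 lower in Lien than in NS (median -0.077). Of all tested genes 70.1% were higher in AngII than in NS, 70.2% lower in Lien than in AngII and 47.8% higher in Lien than in NS.

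Across the 15 libraries Nfkb1, Nfkb2, Rela, Relb, Tnfaip3, Icam1 and Vcam1 varied with marker genes of other cells. The correlations that follow are Pearson's r over log2 values in 15 libraries unless Spearman's is named, given as descriptions. Tissue composition differed between these libraries, and their depth is not given. Nfkb2 had r of 0.92 with the mean of 13 T cell genes, 0.92 with 12 B cell genes and 0.95 with 6 genes of lymphoid stroma. Relb had 0.69, 0.78 and 0.745 with the same lists, Tnfaip3 0.795, 0.85 and 0.875, and Nfkb1 0.79, 0.78 and 0.86. Rela had 0.695, 0.70 and 0.74 with them, and 0.82 with 10 genes of nerve and Schwann cells. By Pearson's r, Vcam1 had 0.91 with 10 macrophage genes, 0.84 with lymphoid stroma and 0.80 with nerve and Schwann cell genes. Icam1 had 0.91 with nerve and Schwann cell, 0.88 with lymphoid stroma, 0.80 with T cell and 0.75 with macrophage genes. Icam1 and Vcam1 had 0.91 with each other. Endothelial genes had 0.72 with Icam1 and 0.66 with Vcam1. Icam1 and Vcam1 had -0.81 and -0.69 with brown fat genes, and -0.66 each with cardiomyocyte genes. Nfkbia had 0.45 with T cell, 0.38 with B cell, 0.51 with lymphoid stroma, 0.38 with macrophage and 0.02 with endothelial genes, and 0.63 with Nfkb2. Its value farthest from 0 among the cell type lists was -0.62, with 8 genes of mesothelium. Of these 5 had an unadjusted limma p under 0.05 in AngII against NS, beside 7.04% of all tested genes. All 8 were lower in AngII, while 70.1% of all tested genes were higher. The part of the mesothelium genes in the Nfkbia result was not tested.

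The lymphoid signal was concentrated in AngII 7 and AngII 9. Ccl21a, a chemokine of lymph node stroma, stood at 421 and 434 FPKM there and at 1.12 to 125 FPKM in the other 13 libraries. The T and B cell gene lists were higher in AngII than in NS for 13 of 13 and 11 of 11 tested genes, beside 70.1% of all tested genes. None of these list genes passed. No marker of either list was at 0 in all libraries, and list sums ran from 4.92 to 231.5 FPKM for T cells in AngII, 8.40 to 106 in NS and 3.89 to 65.0 in Lien. With the mean of T and B cell genes as a covariate, the difference of AngII against NS came to 0.32 for Nfkb2, 0.46 for Tnfaip3, 0.43 for Vcam1, 0.12 for Icam1 and -0.54 for Relb, none of which passed, and to 0.89 for Nfkbia (SE 0.19, limma adjusted p = 0.164). Without AngII 7 and AngII 9 the Nfkbia difference was 0.79 (SE 0.21, limma adjusted p = 0.613).

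Across all 15 libraries Nfkbia varied with genes that glucocorticoids induce. The mean of 13 such genes on the log2(FPKM + 1) scale was 5.72 to 6.10 in NS, 6.29 to 6.64 in AngII and 6.10 to 6.47 in Lien, with r of 0.78 to Nfkbia over the 15 libraries. Within AngII they did not rise together. AngII 7 had the lowest list mean (6.29) and the highest Nfkbia (150.0 FPKM), and AngII 6 the highest list mean (6.64) with 110.6 FPKM. In NS, NS 5 was highest for both (6.10 and 74.8 FPKM). In Lien, Lien 15 was lowest for both (6.10 and 72.1 FPKM). Nfkbia is a known target of the glucocorticoid receptor, which is background only: a part of the receptor in these Nfkbia values was not tested. In AngII against NS 12 of the 13 were higher, beside 70.1% of all tested genes, with a median of 0.57. An unadjusted p under 0.05 was reached by 9, beside 7.04% of all tested genes, of which 8 were higher and 1, Sgk1, lower (log2 -0.40, limma adjusted p = 0.556). In that comparison 1 of the 13 passed, beside 0.077% of all tested genes: Klf15 was higher (log2 1.11, limma adjusted p = 0.031), a call lost in 16 of 31 alternatives, among them no filter on low values (limma adjusted p = 0.0818) and 8 of the 15 fits without 1 library (NS 1, 2 or 4, or AngII 6 to AngII 10; limma adjusted p from 0.0725 to 0.114). In Lien against NS 10 of the 13 were higher and 3 lower (47.8% of all tested genes were higher), with a median of 0.44 against -0.013. An unadjusted limma p under 0.05 was reached by 7, beside 7.06% of all tested genes. Klf15 was higher (log2 0.77, limma adjusted p = 0.143), without overlap, as were 0.892% of all tested genes. There 1 of the 13 passed, beside 0.231% of all tested genes: Sgk1 was lower (log2 -0.74, limma adjusted p = 0.04), a call lost in 21 of 31 alternatives, among them every fit without 1 library but that without Lien 11 (limma adjusted p from 0.051 to 0.119). Tsc22d3, which encodes the glucocorticoid-induced leucine zipper, was at 25.8 to 67.1 FPKM in NS, 73.1 to 139 in AngII and 39.5 to 90.2 in Lien. Not every gene of the list kept this order. In NS, AngII and Lien, Fkbp5 averaged 38.8, 58.1 and 57.3 FPKM, Zbtb16 6.67, 10.9 and 20.5, and Dusp1 131, 135 and 82.4. With this list as a covariate, chosen after the data were seen, the Nfkbia difference was 0.755 with an SE of 0.39 (limma adjusted p = 0.954). The list mean does not overlap between AngII and NS, so list and group cannot be told apart there.

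**Figure D3:**
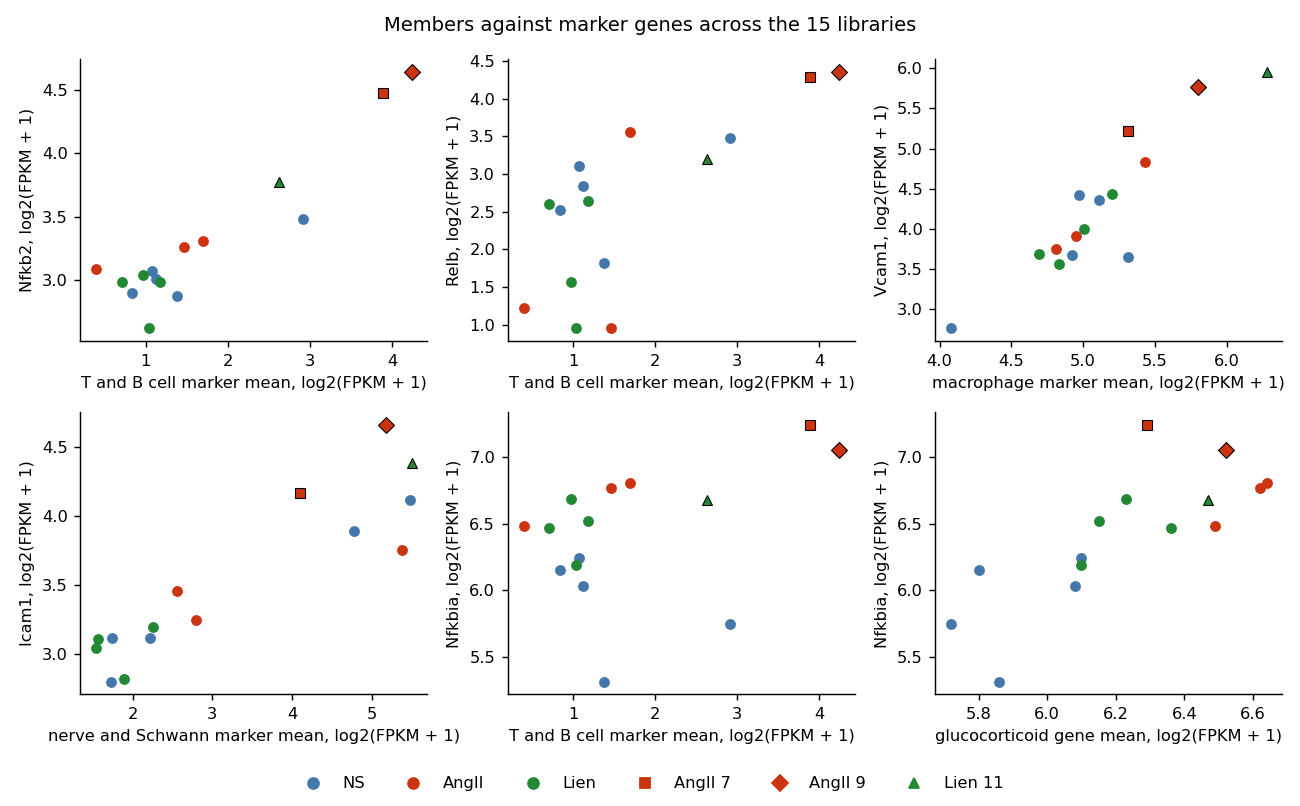
Log2(FPKM + 1) of Nfkb2, Relb, Vcam1, Icam1 and Nfkbia against the mean log2(FPKM + 1) of marker gene lists, 1 point per library, coloured by group, with AngII 7, AngII 9 and Lien 11 given their own symbols. Nfkb2 was highest in AngII 7 and AngII 9, where the T and B cell gene mean was highest. Nfkbia had r of 0.78 with the glucocorticoid gene mean over all libraries, and neither overlaps between AngII and NS. Within AngII the library with the lowest glucocorticoid gene mean, AngII 7, had the highest Nfkbia.

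The genes most alike in profile were taken from 7954 tested genes with a mean of at least 5 FPKM. For Nfkbia they were Ddit4, an inhibitor of mTOR signalling (r of 0.955), Ccdc71l (0.91), Gadd45b (0.90), Irf2bp2 (0.86) and the phosphatase gene Ptpn2 (0.855), over 15 libraries. Ddit4, which is among the 13 glucocorticoid-induced genes above, ran from 36.4 to 113 FPKM in NS, 141 to 257 in AngII and 104.5 to 207 in Lien. Its AngII libraries all lay above its NS libraries, as for 1.51% of all tested genes. The order of groups was that of Nfkbia, but Ddit4 was picked for its likeness to Nfkbia in these same libraries, so this order adds no separate evidence. For Icam1 they were Rab8b (0.98), the cyclin gene Ccnd1 (0.97), Rnf145, Samd9l and Cdk19 (each 0.96). For Vcam1 they included Spi1, which encodes the myeloid factor PU.1 (0.96), Pigt, Ankrd13a and Samhd1 (from 0.955 to 0.96).

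The transcripts behind the gene sums were not equally steady. Nfkbia-201, of 6 exons, held 98.9% of the Nfkbia value and stood at 38.3 to 146 FPKM in the 15 libraries, and Rela-201 and Icam1-201 held 98.3% and 96.9% of theirs. Vcam1 was divided between Vcam1-201, of 9 exons (71.8%), and the shorter Vcam1-203, of 5 exons (26.1%). The shorter form made up 28.4% of the Vcam1 value in NS, 21.4% in AngII and 30.4% in Lien, taken over the summed libraries and given without a test. In single libraries Vcam1-203 ranged from 0.91 FPKM in NS 4 to 16.0 FPKM in Lien 11.

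Nfkb1, Nfkb2, Relb and Tnfaip3 were split among several annotated forms whose shares jumped between libraries. Nfkb1-202, a form with a retained intron, stood at 17.8 FPKM in AngII 7 beside 2.59 FPKM of the coding Nfkb1-201, whereas AngII 9 had 4.64 and 16.3 FPKM. Tnfaip3-201 and Tnfaip3-202 stood at 0.115 and 10.5 FPKM in AngII 9 and at 6.16 and 6.19 FPKM in AngII 7. Nfkb2-201 was listed at 0 in Lien 14 and Lien 15, and Nfkb2-205, with a retained intron, was above 0 in 6 of 15 libraries. Such values are estimates of how shared fragments divide, so the gene sums were used for the comparisons. Among 7955 tested genes with a mean of at least 5 FPKM, 6.74% had a leading transcript listed at 0 in at least 1 library.

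**Figure D4:**
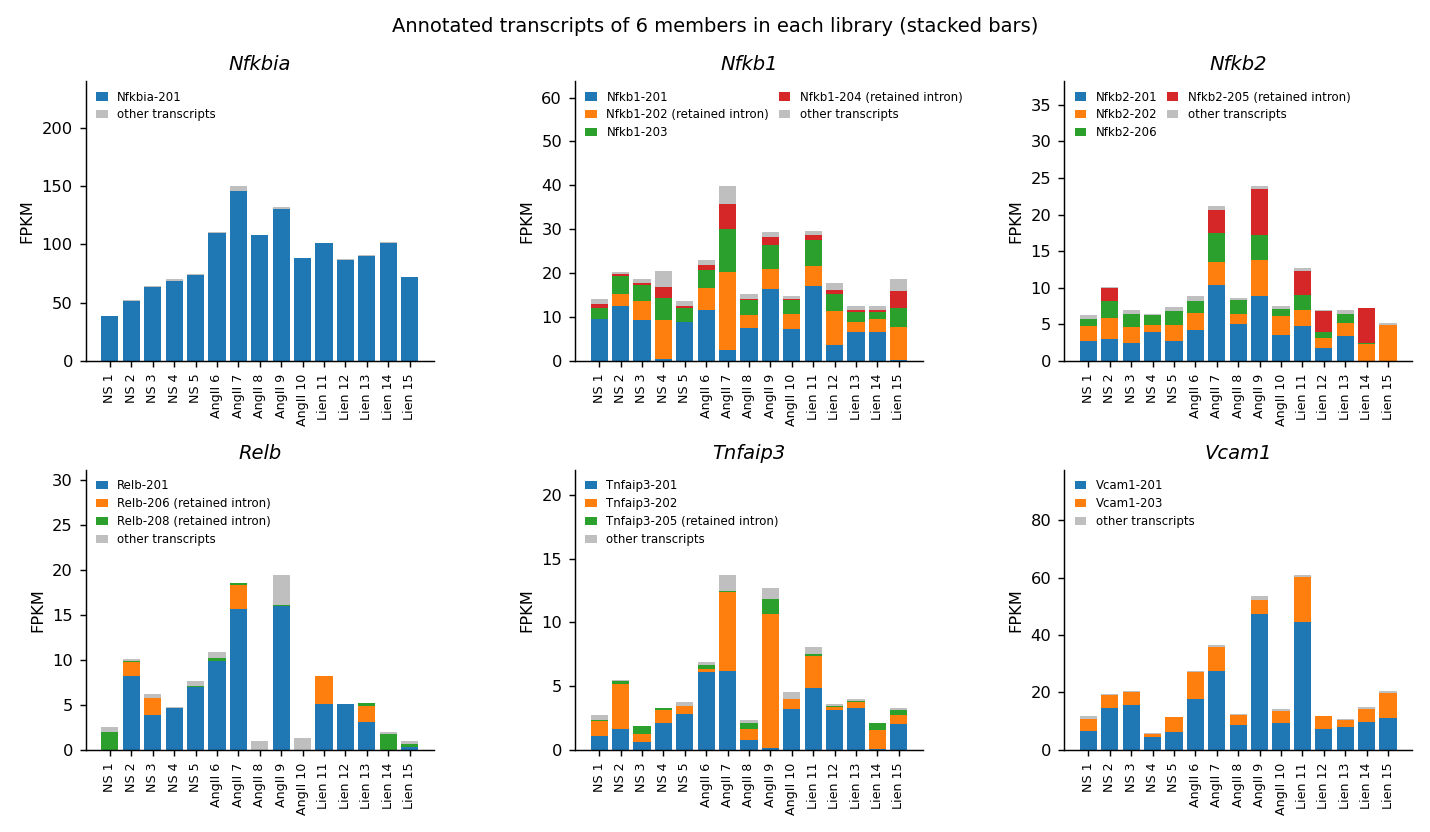
FPKM of annotated transcripts, stacked per library, for 6 of the genes; forms with at least 5% of the gene's summed value have their own colour and the rest are grey. Nfkbia is nearly all Nfkbia-201 in every library (98.9% of the total), while the forms of Nfkb1, Nfkb2, Relb and Tnfaip3 change place from library to library and Relb-201 is listed at 0 in 4 of them.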

How the data were processed

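The deposited table holds 1 value per transcript and library, read here as FPKM made by the authors: neither header nor labels name the unit, and the values are not whole and sum to 477095 to 569546 per library. Per the labels' protocols, total RNA was depleted of ribosomal RNA. Limma is named in the submitters' processing notes; aligner, quantifier and build: not given in the sources used here. Low values times transcript length lay on a grid with a spacing of 0.013 to 0.0159 FPKM × kb, but no source says that a step is 1 fragment, so depth is unknown. Of 101208 Ensembl transcripts 99965 matched GENCODE M21 (GRCm38) and were summed to genes. The 15586 genes that reached 0.5 FPKM in 5 or more libraries were tested on log2(FPKM + 1) in 1 limma 3.58.1 fit of 3 group means (R 4.3.3, trend and robust options, two-sided), with Benjamini-Hochberg adjustment over all tested genes and a threshold of 0.05. The fit was tested on simulated data, and 31 alternatives (scaling, filter, pseudocount, library weights, marker covariates, libraries left out) were refitted. Fold differences on this scale understate low genes. Figures used Python 3.11.15 and matplotlib 3.10.9.

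The 10 genes and all lists were chosen with earlier results of these data known. Other genes are named if called, or else as the 2 most abundant and the smallest p of a list. Rel, Bcl3, Nfkbiz, Il1b, Il1r1, Cd83, Tsc22d3, Fkbp5, Zbtb16, Dusp1 and Ccl21a are named partly after their values were seen. Among the marker lists searched, those of neutrophils, fibroblasts, skeletal muscle, cardiomyocytes and mesothelium had medians of 0.55, 0.245, -0.999, -2.46 and -1.18 in AngII against NS, and no gene of them passed. Of the genes most like Vcam1, 1 is not reported here.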

Additional observations from a re-analysis of the deposited data

Results flagged for a closer look

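Values that stand apart from the other 4 libraries of their group were sought for 10 genes in 3 groups, 30 sets in all. There were 4, and 3 of them were Lien 11. The cut-off marks about 1 in 20 sets of independent normal values. These sets are FPKM values of genes that vary together (Icam1 with Vcam1, r of 0.91), so the count of 4 cannot be read against that share. Vcam1 stood at 61.0 FPKM in Lien 11, against 10.8 to 20.5 FPKM in the other Lien libraries. Icam1 stood at 19.9 FPKM in Lien 11, against 6.02 to 8.15 FPKM, and Nfkb2 at 12.7 FPKM, against 5.14 to 7.23 FPKM. Nfkb2 also stood apart in NS 2, at 10.2 FPKM against 6.34 to 7.38 FPKM. Lien 11 had the highest means of all 15 libraries for macrophage genes (6.28), nerve and Schwann cell genes (5.50) and fibroblast genes (7.14) on the log2(FPKM + 1) scale. NS 2 had the highest means of the NS group for T cell genes (2.92) and B cell genes (2.90). The part of these in the values was not tested.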

How the results depend on the processing

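No paired analysis was possible because the groups share no replicate numbers. The 24 differences of the 8 tested genes were refitted under 31 alternatives, 2 of them added after the data were seen (glucocorticoid and endothelial covariates), which gave 744 values: 701 kept direction and call, 41 changed sign and 2 passed. Both that passed were Nfkbia in AngII against NS, with library weights (1.07, limma adjusted p = 0.0447) and with an endothelial covariate (1.01, limma adjusted p = 0.0494), so 1 of the 8 genes was called there. The Nfkbia difference ran from 0.755 to 1.07 over the alternatives (adjusted p from 0.0447 to 0.954) and passed in none of the 15 fits without 1 library, where it ran from 0.829 to 1.07.

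Changes of sign were of small or widely spread differences. For Relb, AngII against NS gave -0.0203 with a pseudocount of 0.1, -0.0424 with scaling to a common median, -0.537 with the T and B cell, -0.188 with nerve and cardiac and -0.328 with macrophage covariates, -0.842 without AngII 7 and AngII 9, -0.227 without NS 3 and AngII 9, and -0.248 to 0.603 without 1 library; Lien against AngII gave 0.0985 with the T and B cell covariate and 0.281 without AngII 7 and AngII 9. For Rela, AngII against NS gave -0.00567 with quantile normalization, -0.0386 with scaling to a common median and -0.0713 with the glucocorticoid covariate. For Vcam1, Lien against AngII gave 0.216 with the T and B cell, 0.287 with nerve and cardiac covariates and 0.157 without AngII 7 and AngII 9. In Lien against NS, Nfkb1 gave -0.013 with a common sum over nuclear genes, -0.137 with the macrophage covariate and -0.175 to 0.123 without 1 library. Nfkb2 gave -0.0082, -0.187 and -0.159 to 0.13 under the same settings, -0.0902 with library weights and -0.000984 without NS 3 and AngII 9. Tnfaip3 gave -0.0774 with the macrophage covariate and -0.044 to 0.345 without 1 library. Icam1 gave 0.0661 with nerve and cardiac covariates, 0.0797 without NS 3 and AngII 9, 9.08e-05 with the endothelial covariate and -0.368 to 0.0797 without 1 library. The cause was not tested.

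Counts of all genes called were less steady. AngII against NS called 12, and 2 with no filter, 23 with quantile normalization, 6 with scaling to a common median, 19 with the 2 groups alone, 35 with library weights, 6 with the macrophage, 0 with the glucocorticoid and 43 with the endothelial covariate, 1 without AngII 7 and AngII 9, 7 without NS 3 and AngII 9, and 1 to 17 without 1 library. Lien against AngII called 2, and 1 with the filter of 1 FPKM, quantile normalization, the 2 groups alone, the T and B cell, nerve and cardiac, or glucocorticoid covariates, 6 with library weights, and 1 to 3 without 1 library. Lien against NS called 36, and 23 with no filter, 7 with the 2 groups alone, 94 with library weights, 65 with the macrophage and 3 with the glucocorticoid covariate, 20 without NS 3 and AngII 9, and 11 to 37 without 1 library.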
